A study of Mus musculus with 91 samples.

Results

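Tregs, regulatory CD4 T cells whose identity is set by Foxp3 and which restrain other immune cells, were compared 16 h after mice received mouse IL-2 or PBS. The comparison takes 8 of the 91 samples of the series, the 4 libraries labelled 16h-IL2 and the 4 labelled 16h-PBS, chosen by their treatment labels. The cells were sorted from the spleens of C57/BL6 mice with a red fluorescent protein reporter for Foxp3, and their total RNA was depleted of ribosomal RNA and sequenced. A further 4 libraries of the same table came from mice that had received FP, the fusion of mouse IL-2 with its receptor chain CD25, and they entered the fit. The labels do not give the IL-2 dose, the age of the mice, the sort gates or whether a library came from 1 animal or a pool. A single protocol text covers every sample and names 1.5 h, and the 16 h comes from the treatment label. Nothing in the labels says that replicates are separate animals, and p-values therefore measure the spread between these libraries only.

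IL-2 acts on Tregs through a receptor whose CD25 chain (Il2ra) they carry at high level, and the receptor's signal reaches the nucleus mainly through the transcription factor STAT5. Within hours it raises genes for the receptor itself, for feedback inhibitors such as Cish and the Socs proteins, and for growth. A lymphocyte that goes on to divide first builds ribosomes and nucleotides, then licenses and copies its DNA in S phase together with new histones, and last assembles the spindle and separates its chromosomes. The genes of these later steps are switched on in order, by E2F factors at the G1/S boundary and by B-Myb and FoxM1 complexes in G2 and mitosis.

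The 12 libraries of the 16 h table held 13.9 to 17.6 M counted reads, and 17453 genes were tested. Levels are given as CPM, counts scaled to library size with TMM factors, and are compared between libraries, not between genes. The Treg markers were present in every library: summed over the 8 genes Foxp3, Cd4, Cd3e, Cd3d, Trac, Il2ra, Ctla4 and Ikzf2, the level was 3982 to 4241 CPM in IL-2 libraries and 3833 to 4546 CPM in PBS libraries. Foxp3 itself averaged 540 ± 11.5 CPM after IL-2 and 553 ± 94.1 CPM after PBS (SD, n = 4 each). The PBS libraries differed more among themselves than the IL-2 libraries did. Between pairs of libraries the chi-square of the counts, divided by its degrees of freedom, was 2.91 to 6.65 within the IL-2 group and 7.38 to 33.65 within the PBS group. The small nuclear RNA gene Rn7sk took 1.26% to 1.56% of the reads in IL-2 libraries, against 1.37% and 1.75% in PBS libraries 1 and 2. PBS libraries 3 and 4 stood apart, with 2.61% and 2.63%. Results that these PBS libraries were seen to move are given with and without them.

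At 16 h, genes of chromosome duplication and cell division were higher after IL-2 than after PBS. Of the 17453 genes, 60 were higher, 0.344% of those tested, and 1 was lower, 0.00573%, at an adjusted p below 0.01 (edgeR's quasi-likelihood F test with Benjamini-Hochberg adjustment over all genes). Of the 60 higher genes, 43 belonged to 9 lists of cell division genes and 8 were histone genes of the replication-dependent clusters. Their log2 fold changes ran from 0.51 to 2.92 with a median of 1.55, and 50 were at least 2-fold higher. In all 60 the 4 IL-2 libraries lay above the 4 PBS libraries, where 2.53% of all genes tested did. The 60 were picked by a test on these same libraries, so that this describes them and is no separate evidence. At an unadjusted p below 0.05 there were 2021 genes. In bulk samples, more cells that express these genes and more of their RNA per cell cannot be told apart.

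The number of genes past the threshold depended on single libraries. There were 22 genes without IL-2 library 2, 19 without IL-2 library 3, 37 without PBS library 2, 35 without PBS library 4, 23 without PBS libraries 3 and 4 together, and 7 when the FP libraries were left out of the fit. Without PBS library 1 there were 66, of which 26 were lower. DESeq2 called 136 genes, of which 105 were higher and 31 lower. Every one of the 61 genes kept its sign in each of the fits run in which it was tested. In all 61 the IL-2 and PBS libraries did not overlap, so that refits of the same libraries could hardly turn a sign. The kept signs are therefore no separate evidence. Cit, Kif14, Kntc1, Mki67, Ncapg2 and Top2a were the named genes that passed in all 16 alternatives.

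**Figure D1:**
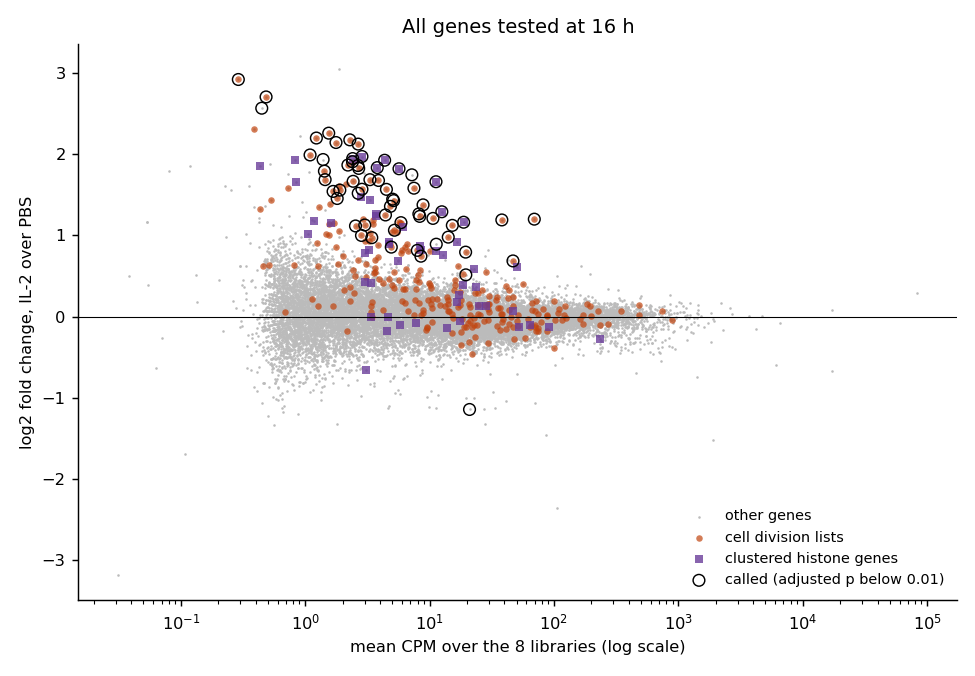
Log2 fold change of IL-2 over PBS against the mean level over the 8 libraries (CPM, log scale) for the 17453 genes tested at 16 h. Cell division genes and clustered histone genes make up 51 of the 60 higher genes, which are ringed together with the single lower gene, Gm24265.

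Several of the higher genes act in the last steps of division. In the kinetochore and centromere list, whose proteins tie chromosomes to the spindle, 6 of 38 tested genes rose and the median log2 change was 0.60. Kntc1, a subunit of the complex that recruits dynein to kinetochores (chromosome 5, 123749716 to 123821593), had 9.74, 12.9, 13.2 and 9.06 CPM in IL-2 libraries, against 3.78, 4.04, 2.82 and 4.39 CPM in PBS libraries. The lowest IL-2 library was more than 2-fold above the highest PBS library, the log2 change was 1.58 ± 0.15 (SE), and the adjusted p was 0.000269, the smallest of all genes. Bub1, a spindle checkpoint kinase, had 1.74, 2.47, 3.3 and 2.72 CPM after IL-2 and 0.641, 0.429, 0.42 and 0.636 CPM after PBS. Its log2 change of 2.26 ± 0.29 was past the test (adjusted p = 0.00124). Cenpe, a kinesin of the kinetochore, averaged 11.7 ± 2.63 CPM in IL-2 libraries and 4.97 ± 0.67 CPM in PBS libraries, and also rose (log2 change 1.23 ± 0.16, adjusted p = 0.00114).

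In the list of spindle proteins and kinesins 10 of 36 tested genes rose, with a median log2 change of 0.72 over the list. Cit, the citron kinase of the dividing cell's midbody, had 11.3, 12.9, 15.3 and 11.7 CPM after IL-2 and 5.51, 6.25, 3.96 and 4.01 CPM after PBS (log2 change 1.38 ± 0.15, adjusted p = 0.000443). The kinesin Kif14 averaged 3.74 ± 1.01 CPM in IL-2 libraries and 0.824 ± 0.215 CPM in PBS libraries, a log2 change of 2.18 ± 0.24 (adjusted p = 0.000629). Tacc3, which stabilises spindle microtubules, differed by less, 0.82 ± 0.11, but its libraries were so alike within groups that it passed as well (adjusted p = 0.00136). Aspm, a spindle pole protein, rose by 1.43 ± 0.21 (adjusted p = 0.0025).

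Chromosome condensation and cohesion genes rose in 9 of 25 cases, with a median log2 change of 0.69. Mki67 (chromosome 7, 135689784 to 135716361) codes for Ki-67, the protein that coats mitotic chromosomes and is widely used to mark cycling cells. It had 65.8, 102, 122 and 97.1 CPM in IL-2 libraries, against 41.1, 44.4, 45.9 and 37.2 CPM in PBS libraries. All IL-2 libraries were above all PBS libraries, and library 1 was the lowest of the IL-2 group; the log2 change was 1.20 ± 0.14 (adjusted p = 0.000632). Top2a, the topoisomerase that untangles sister chromatids (chromosome 11, 98992943 to 99024189), averaged 53.0 ± 12.3 CPM after IL-2 and 23.2 ± 2.48 CPM after PBS, a log2 change of 1.19 ± 0.14 (adjusted p = 0.000737). Ncapg2, a subunit of condensin II, had 15.6 to 21.6 CPM in IL-2 libraries and 9.28 to 10.1 CPM in PBS libraries, and rose by 0.98 ± 0.12 (adjusted p = 0.000737).

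Among mitotic kinases, cyclins and genes of the anaphase-promoting complex, 4 of 28 rose, with a median log2 change of 0.57. They were Cdk1, the kinase that drives entry into mitosis, Ccna2 (cyclin A2), Troap and Depdc1b. Cdk1 had 3.54, 4.45, 4.95 and 3.62 CPM after IL-2 and 1.54, 1.53, 2.58 and 1.91 CPM after PBS (log2 change 1.13 ± 0.19, adjusted p = 0.00621). Ccna2 averaged 6.73 ± 2.29 CPM in IL-2 libraries and 2.27 ± 0.377 CPM in PBS libraries (log2 change 1.57 ± 0.24, adjusted p = 0.00321). Troap and Depdc1b were called at levels of at most 2.47 CPM, where few reads stand behind a fold change.

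**Figure D2:**
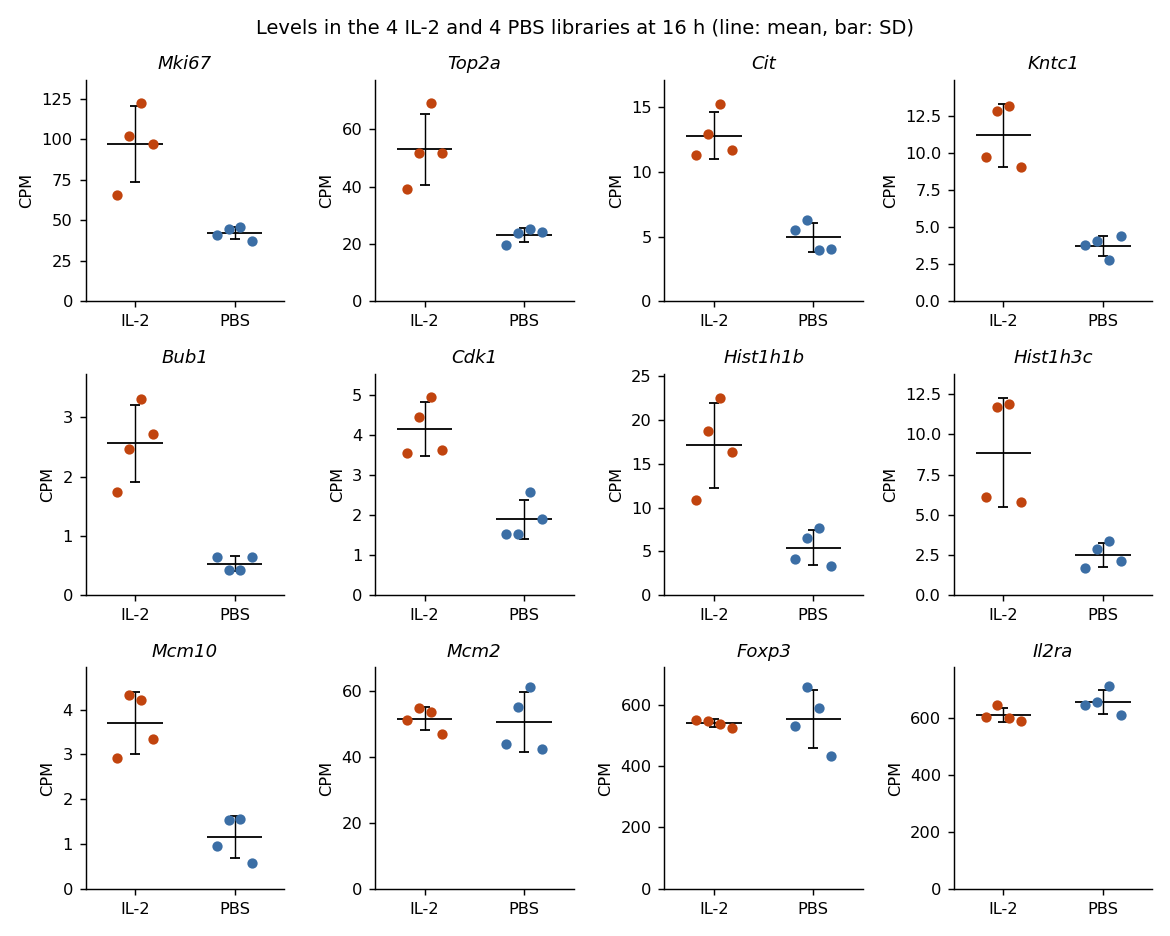
Level (CPM) of 12 genes in each of the 4 IL-2 libraries (left) and the 4 PBS libraries (right) at 16 h, with the mean as a line and the SD as a bar. Division and histone genes such as Mki67, Kntc1 and Hist1h1b separate the groups, while Mcm2, Foxp3 and Il2ra overlap.

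Fewer members of the DNA replication lists had large values, though the lists were not tested against each other. Of 27 origin licensing and firing genes 3 rose, with a median log2 change of 0.11 over the list, and of 30 replication fork genes 4 rose, with a median of 0.13. The median over all genes tested was -0.01. Mcm10, which fires licensed origins, had 2.92, 4.32, 4.22 and 3.3 CPM in IL-2 libraries, against 0.961, 1.53, 1.56 and 0.572 CPM in PBS libraries (log2 change 1.67 ± 0.22, adjusted p = 0.00136). Cdc6, a licensing factor, and Cdc45, a subunit of the replicative helicase, rose by 0.97 ± 0.14 (adjusted p = 0.00211) and 0.86 ± 0.15 (adjusted p = 0.00899). The core helicase gene Mcm2, by contrast, had 51.1, 54.7, 53.5 and 47.0 CPM after IL-2 and 44.1, 55.1, 61.2 and 42.3 CPM after PBS. These ranges overlap, and the log2 difference was 0.03 ± 0.10 (adjusted p = 0.947).

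At the fork, Uhrf1, which carries DNA methylation over to the new strand, averaged 20.9 ± 3.49 CPM in IL-2 libraries and 9.57 ± 2.22 CPM in PBS libraries, a log2 change of 1.12 ± 0.14 (adjusted p = 0.00114). The checkpoint mediator Clspn rose by 1.16 ± 0.16 (adjusted p = 0.00172), Pole, the catalytic subunit of a replicative polymerase, by 0.79 ± 0.12 (adjusted p = 0.00243), and the PCNA partner Pclaf by 1.06 ± 0.17 (adjusted p = 0.00436). In the nucleotide supply list only Rrm2, the regulated subunit of ribonucleotide reductase, rose among 18 genes, by 1.21 ± 0.20 (adjusted p = 0.00581), and 12 of the 18 log2 values were below 0. Of 30 DNA damage checkpoint and repair genes 4 rose, among them Brip1 (1.25 ± 0.17, adjusted p = 0.00172), Rad54b (1.45 ± 0.24, adjusted p = 0.00594) and Brca1 (0.74 ± 0.12, adjusted p = 0.0045), all of homologous recombination.

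Among 29 regulators of the G1/S step only E2f7 and E2f8 rose, the atypical E2F factors that repress E2F targets late in S phase. E2f8 had 2.42, 3.03, 5.01 and 3.41 CPM in IL-2 libraries, against 0.705, 1.1, 1.14 and 0.827 CPM in PBS libraries (log2 change 1.87 ± 0.25, adjusted p = 0.00136). E2f7 averaged 3.79 ± 1.46 CPM after IL-2 and 1.01 ± 0.491 CPM after PBS (log2 change 1.91 ± 0.32, adjusted p = 0.00621). Ccnd2, the cyclin D gene that IL-2 raises early, had 730 to 785 CPM after IL-2 and 664 to 795 CPM after PBS and did not pass (0.07 ± 0.07, adjusted p = 0.746). Over all 9 lists 205 of 261 tested genes had a log2 value above 0, with a median of 0.22. Summed over the 261 tested members, the level was 10361 ± 380 CPM in IL-2 libraries and 9824 ± 367 CPM in PBS libraries (SD, n = 4 each), with overlapping ranges.

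Histone genes of the replication-dependent clusters encode the histones made in S phase, and their messengers have no poly(A) tail, so that they are measured in total RNA libraries. Of 52 tested, 8 rose and 40 had a log2 value above 0, with a median of 0.80. Summed over the 52 genes, the level was 982 ± 198 CPM in IL-2 libraries and 870 ± 123 CPM in PBS libraries (SD, n = 4 each), with overlapping ranges. By protein, the median was 1.24 for 9 H3 genes, 1.02 for 13 H2A genes, 0.76 for 13 H2B genes, 0.61 for 5 H1 genes and 0.20 for 12 H4 genes. The mean sums of the H2A, H2B, H3 and H4 genes were higher after IL-2. That of the H1 genes was not, at 364 CPM after IL-2 and 377 CPM after PBS. Hist1h3c (chromosome 13, 23744973 to 23745602) had 6.08, 11.7, 11.9 and 5.78 CPM in IL-2 libraries, against 1.67, 2.88, 3.4 and 2.10 CPM in PBS libraries (log2 change 1.82 ± 0.26, adjusted p = 0.00184). IL-2 libraries 2 and 3 were about as high as each other and above libraries 1 and 4, but the groups did not overlap. Hist1h1b, a linker histone, averaged 17.1 ± 4.85 CPM after IL-2 and 5.40 ± 1.99 CPM after PBS (log2 change 1.66 ± 0.23, adjusted p = 0.00184). The other called genes were Hist1h3b, Hist1h3g, Hist1h2ab, Hist1h2bk, Hist1h2bn and Hist1h4f, with log2 changes of 1.16 to 1.97. Not every gene of the clusters took part: Hist1h1c, a linker histone also made outside S phase, and named here after its values were seen, had 205, 253, 229 and 164 CPM in IL-2 libraries, against 205, 236, 258 and 336 CPM in PBS libraries (log2 difference -0.28 ± 0.14, adjusted p = 0.453).

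The number of histone calls depended on the fit. It was 0 in the fit of only the 8 compared libraries, 18 with DESeq2 and 16 with the replicate block. It was 1 without IL-2 library 2 or IL-2 library 3, 3 without PBS library 4, 5 without PBS library 1 or 2, 14 without IL-2 library 1, and 2 without PBS libraries 3 and 4 together, while with these libraries left out the median of the 52 genes stayed between 0.65 and 0.97. Histone genes are near-identical in sequence, and reads may be shared between them in ways the counts do not show.

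The promoter windows of the higher genes, from 250 bases before to 50 after each start, were read from RefSeq on GRCm38.p6. A window was found for 34 of the 43 called division genes and, through their newer RefSeq names, for all 8 called histone genes. They are shown because these genes rose together and are known to be under cell cycle control. Both strands were searched for the E2F motif TTTNNCGC and the cell cycle genes homology region TTTGAA, where B-Myb and FoxM1 complexes bind. The other motifs were the CCAAT box, TATAAA, the octamer ATTTGCAT and the STAT5 motif TTCNNNGAA. The windows of Mki67 and Cdk1 both hold the homology region, that of Cdk1 also holds the E2F motif, and the histone windows hold TATAAA and CCAAT. In Mki67 and Cdk1, capitals mark the homology region, the CCAAT box and the E2F motif on either strand. In the histone genes they mark the same letters of TATAAA and CCAAT on either strand and, in Hist1h2bk, also the octamer ATTTGCAT. The TATAAA match of Hist1h3b lies just before the start, where TATA boxes lie, and that of Hist1h2bk is on the opposite strand, far from the start. The windows lie at chr7:135716330-135716629 (minus strand), chr10:69352863-69353162 (minus strand), chr13:23752095-23752394 (plus strand) and chr13:22035571-22035870 (plus strand).
Mki67: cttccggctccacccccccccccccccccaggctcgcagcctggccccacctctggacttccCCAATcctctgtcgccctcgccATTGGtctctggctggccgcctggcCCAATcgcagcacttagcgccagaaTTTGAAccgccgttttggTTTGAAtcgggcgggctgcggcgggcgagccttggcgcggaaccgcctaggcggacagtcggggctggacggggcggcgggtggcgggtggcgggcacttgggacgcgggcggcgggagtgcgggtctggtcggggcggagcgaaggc
Cdk1: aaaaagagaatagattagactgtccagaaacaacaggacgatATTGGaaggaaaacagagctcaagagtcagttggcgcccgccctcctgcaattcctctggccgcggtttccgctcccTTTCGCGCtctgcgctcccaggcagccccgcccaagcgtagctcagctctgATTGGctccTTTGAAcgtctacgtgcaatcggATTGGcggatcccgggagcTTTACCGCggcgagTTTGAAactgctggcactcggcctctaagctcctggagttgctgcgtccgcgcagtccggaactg
Hist1h3b: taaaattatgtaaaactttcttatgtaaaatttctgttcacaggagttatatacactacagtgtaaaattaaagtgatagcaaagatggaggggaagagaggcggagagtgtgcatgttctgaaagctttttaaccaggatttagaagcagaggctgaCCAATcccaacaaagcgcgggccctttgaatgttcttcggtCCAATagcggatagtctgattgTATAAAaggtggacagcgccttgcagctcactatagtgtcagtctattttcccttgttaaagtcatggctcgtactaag
Hist1h2bk: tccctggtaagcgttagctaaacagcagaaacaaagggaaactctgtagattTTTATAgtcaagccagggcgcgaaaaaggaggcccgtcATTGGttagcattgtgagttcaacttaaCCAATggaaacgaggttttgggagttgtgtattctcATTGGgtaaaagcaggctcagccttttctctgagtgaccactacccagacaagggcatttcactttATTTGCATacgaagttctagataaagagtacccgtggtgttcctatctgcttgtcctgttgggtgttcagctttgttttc

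Among the called division genes with a window, 18 (52.9%) held TTTGAA, 27 (79.4%) CCAAT and 11 (32.4%) the E2F motif. Among the 176 other members of the division lists with a window the shares were 34.1%, 56.2% and 26.1%, and among 10892 genes tested at 16 h they were 15%, 42.4% and 9.44%. TATAAA was found for 6 of the 8 called histone genes and for 31 of 46 measured histone genes with a window (67.4%), against 9.26% of the genes tested. The STAT5 motif was found for 2 (5.88%) of the called division genes with a window and for 0 of the 8 called histone genes. Its share was 8.52% among the other division list members and 8.45% among the genes tested. These shares describe letters in a window of 300 bases and were not tested.

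The FP libraries of the same table give the values of the same genes after the fusion protein. FP and IL-2 are both compared here with the same 4 PBS libraries, and FP against IL-2 uses the same IL-2 libraries, so the values are given side by side. Of the 60 genes higher after IL-2, 44 were higher still after FP than after IL-2 and none was lower, where 16.8% of all genes tested were higher and 14.9% lower. Over the origin licensing list the median log2 change was 1.79 for FP over PBS and 0.11 for IL-2 over PBS, and over the replication fork list 1.74 and 0.13. Over the condensation list it was 1.61 for FP and 0.69 for IL-2, and over the spindle list 1.62 and 0.72. Over the 52 histone genes it was 1.05 for FP and 0.80 for IL-2. Between FP and IL-2 directly, 30 of 30 fork genes and 24 of 27 licensing genes were higher after FP. For spindle genes it was 22 of 36, with 1 lower, and for histone genes 3 of 52, with 4 lower.

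Single genes differed between FP and IL-2 by widely varying amounts. Mcm10 averaged 40.4 ± 1.19 CPM in FP libraries, 3.70 ± 0.684 CPM in IL-2 libraries and 1.16 ± 0.477 CPM in PBS libraries (FP over IL-2 3.44 ± 0.16, adjusted p = 1.04e-10). Mcm2, which did not differ between IL-2 and PBS, averaged 287 ± 14.4 CPM in FP libraries and 51.6 ± 3.42 CPM in IL-2 libraries (2.48 ± 0.10, adjusted p = 6.00e-11). Aspm, on the other hand, averaged 8.57 ± 1.28 CPM in FP libraries, 7.49 ± 2.41 CPM in IL-2 libraries and 2.78 ± 0.142 CPM in PBS libraries, and FP over IL-2 was 0.19 ± 0.19 (adjusted p = 0.431). Hist1h2bn likewise averaged 25.2 ± 4.35 CPM in FP libraries, 17.8 ± 6.03 CPM in IL-2 libraries and 7.27 ± 2.11 CPM in PBS libraries, with FP over IL-2 at 0.50 ± 0.21 (adjusted p = 0.0645). A p that misses the threshold does not show that FP and IL-2 act alike on these genes.

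**Figure D3:**
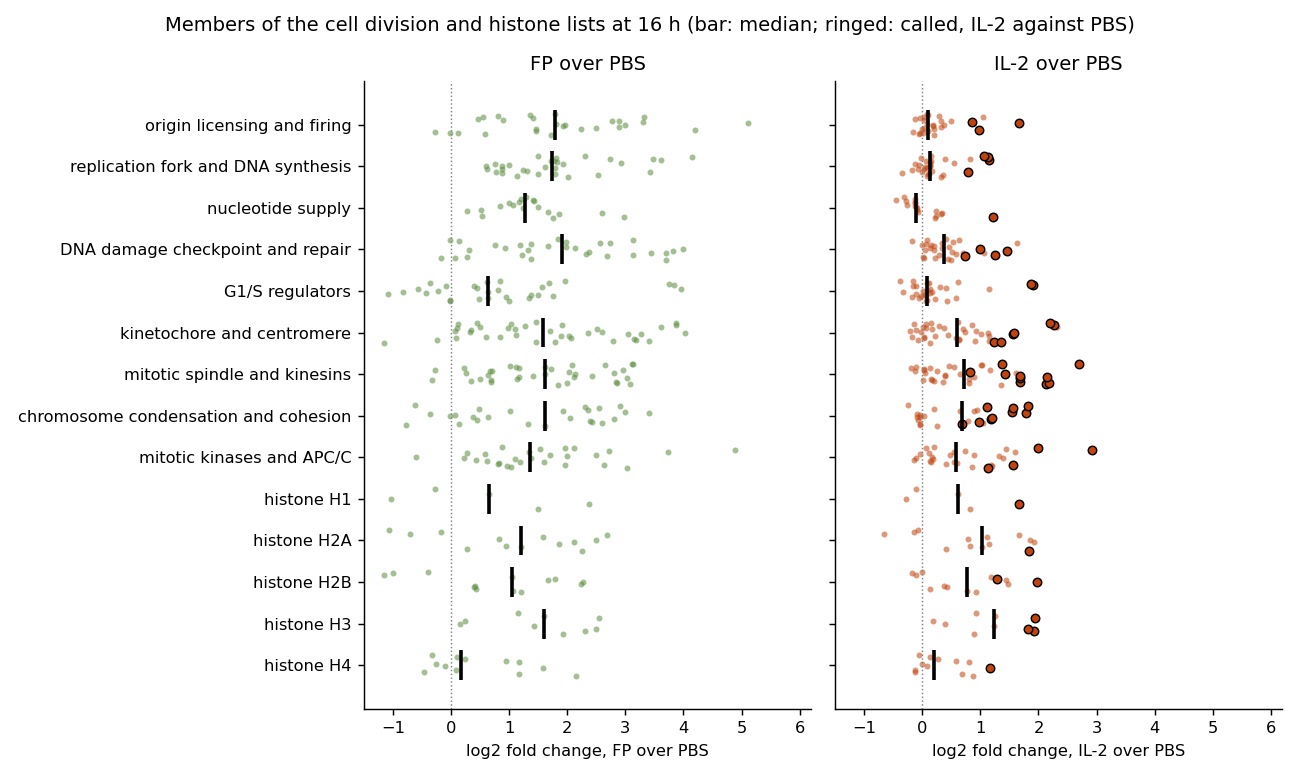
Log2 fold change at 16 h of each tested member of the 9 division lists and the 5 histone groups, FP over PBS at left and IL-2 over PBS at right, both against the same PBS libraries; bars are medians and ringed points passed the test of IL-2 against PBS. The licensing median is 1.79 for FP and 0.11 for IL-2, while the H3 histone median is 1.60 for FP and 1.24 for IL-2.

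The genes listed for the IL-2 receptor and STAT5 targets did not pass the test at 16 h. Of these 28 genes none passed in either direction, where 0.35% of all genes did, and 23 had a log2 value below 0 (median -0.09). At that share a list of 28 genes would rarely hold a called gene. Il2ra had 605, 647, 602 and 589 CPM in IL-2 libraries, against 646, 656, 715 and 613 CPM in PBS libraries, overlapping ranges with a log2 difference of -0.11 ± 0.07 (adjusted p = 0.592). Cish, a feedback inhibitor of STAT5 signalling, averaged 170 ± 12.1 CPM after IL-2 and 203 ± 33.5 CPM after PBS (-0.25 ± 0.10, adjusted p = 0.339). Socs2, another such inhibitor, differed by -0.09 ± 0.09 (adjusted p = 0.751). The cytokine genes Lif and Lta differed by 0.17 ± 0.17 (adjusted p = 0.745) and -0.45 ± 0.13 (adjusted p = 0.165), and Lta passed without PBS library 1 (-0.59, adjusted p = 0.00561). At 1.5 h, in another table with its own PBS libraries, the log2 change of IL-2 over PBS had been 1.88 for Il2ra, 1.90 for Cish, 2.21 for Socs2, 3.96 for Lif and 2.99 for Lta.

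The difference between the IL-2 effects at 16 h and 1.5 h was tested as an interaction over both tables, in which 5.02% of 17580 genes had a larger effect at 16 h and 7.83% a smaller one at an adjusted p below 0.01. All 5 of these genes had a smaller effect at 16 h, by 1.98 for Il2ra and by 3.78 for Lif on the log2 scale (edgeR, adjusted p = 3.82e-12 and 3.67e-09). Of the 28 genes of the list 13 had a smaller effect at 16 h and 1 a larger one. Over the 9 division lists 66 of the 257 genes tested had a larger effect at 16 h than at 1.5 h and 21 a smaller one, among them Ccnd2. The 5 genes and the lists were chosen with earlier results of these data known. Their differences therefore describe them and are no separate evidence. Of the 60 genes higher at 16 h, 57 could be tested and 43 had a larger effect at 16 h than at 1.5 h. These 60 were picked for their effect at 16 h, so that the count describes them and is no separate evidence. At 1.5 h the median log2 value of the 56 with a value was -0.02. Each time is a table of its own with its own PBS libraries, so that time and table cannot be told apart.

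At 72 h the median log2 value of IL-2 over PBS for the 60 genes was -0.16, and 10 of the 60 were above 0. In the fit without the replicate block, 3 of 18076 genes (0.0166%) had a larger effect at 16 h than at 72 h. They were Kntc1, Bub1 and Kif14, with differences of 2.05 ± 0.27, 2.86 ± 0.44 and 2.49 ± 0.37 (edgeR, adjusted p = 0.00251, 0.00815 and 0.00815). That fit takes no account of the pairing by number seen at 72 h. With the replicate number within each table as a block, 23 genes passed, and DESeq2 called 37. The block covers the libraries at 16 h as well as those at 72 h, so that the part of each cannot be told apart. None of the 3 passed when 1 of the libraries PBS 3 at 16 h, IL-2 1 at 72 h or PBS 2 at 72 h was left out. Kntc1 alone passed without IL-2 library 2, 3 or 4 or PBS library 2 or 4 at 16 h, without IL-2 library 2 or PBS library 1 or 3 at 72 h, and without the FP libraries.

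**Figure D4:**
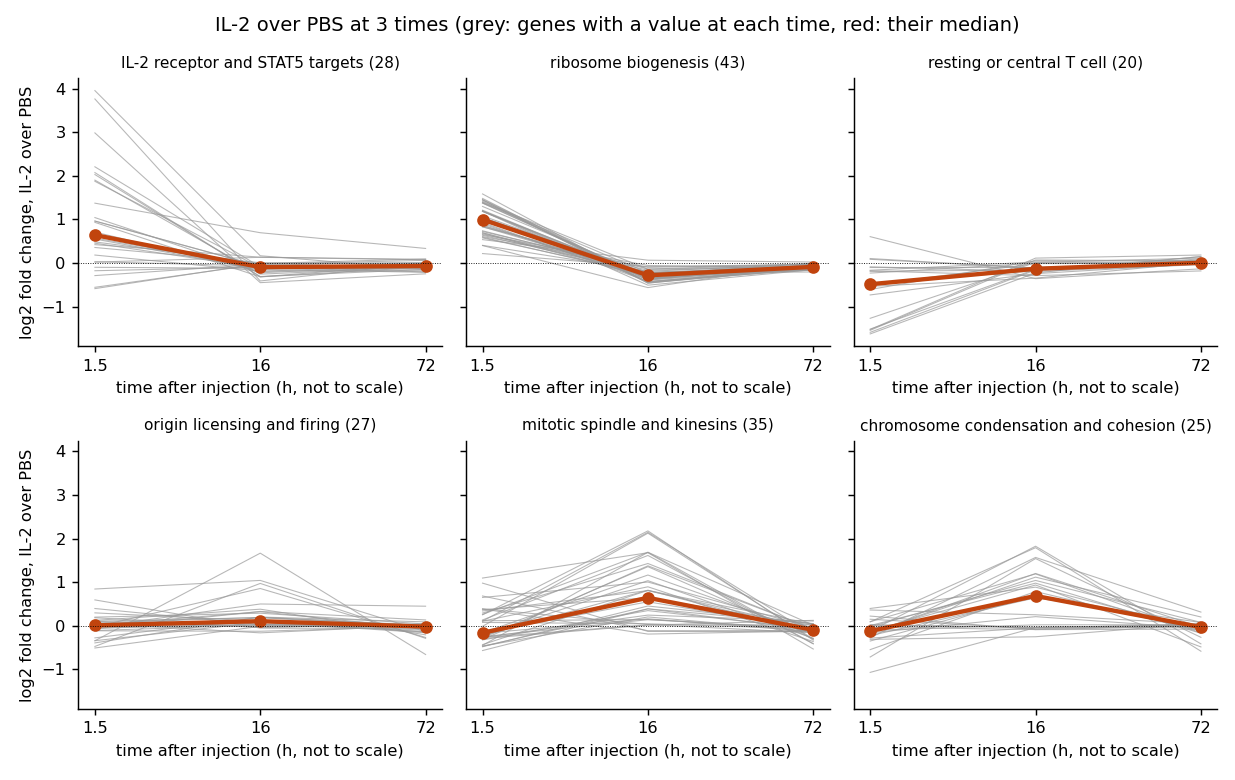
Log2 fold change of IL-2 over PBS at 1.5, 16 and 72 h for 6 gene lists, each time from its own table with its own PBS libraries; grey lines are genes with a value at each time and the red line is their median. IL-2 receptor and ribosome biogenesis genes are highest at 1.5 h, and spindle and condensation genes at 16 h.

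Treg identity genes did not pass at 16 h. None of 19 Treg core genes, 32 effector Treg genes or 20 genes of resting or central T cells passed, where 0.35% of all genes did. At that share lists this short would rarely hold a called gene. Their median log2 values were 0.00, 0.13 and -0.13, and 10 of the 19, 26 of the 32 and 5 of the 20 were above 0. Ctla4, a suppressive receptor, averaged 58.4 ± 9.27 CPM in IL-2 libraries and 59.6 ± 6.53 CPM in PBS libraries (-0.03 ± 0.10, adjusted p = 0.937). Gzmb, the granule protease, had 3.97, 5.75, 8.87 and 8.92 CPM after IL-2 and 3.14, 2.57, 7.86 and 3.24 CPM after PBS, overlapping ranges with a log2 difference of 0.70 ± 0.30 (adjusted p = 0.388). Tcf7 and Bcl6, transcription factors of resting and follicular T cells whose log2 values had been -1.51 and -1.54 at 1.5 h, differed by -0.14 ± 0.10 (adjusted p = 0.601) and 0.07 ± 0.11 (adjusted p = 0.845).

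Growth genes lay slightly below their PBS level, and whether any passed depended on the test. Of 43 ribosome biogenesis genes, the nucleolar factors that make ribosomes, 42 had a log2 value below 0, with a median of -0.28, and none passed, while 2 passed with DESeq2 and 2 without PBS library 1. In 17 of them all IL-2 libraries were below all PBS libraries, where 2.81% of all genes tested were. Nop56, a core protein of box C/D small nucleolar particles, had 104, 93.1, 95.7 and 93.0 CPM in IL-2 libraries, against 114, 129, 167 and 138 CPM in PBS libraries. The groups did not overlap, and the log2 difference of -0.51 ± 0.10 was just outside the threshold (adjusted p = 0.0186). It passed with DESeq2 (adjusted p = 0.000837) and without PBS library 1 (adjusted p = 0.00459), and over the alternatives the adjusted p ran up to 0.11. Without PBS libraries 3 and 4 the difference was -0.33. Outside the list, Sdad1 (-0.38 ± 0.07, adjusted p = 0.0149), Pwp2 (-0.49 ± 0.10, adjusted p = 0.0188) and the tRNA methyltransferase Mettl1 (-0.61 ± 0.12, adjusted p = 0.0188) had similar values, and all 3 passed with DESeq2. Over the alternatives their adjusted p ran up to 0.125, 0.114 and 0.12. At 1.5 h the median of the same 43 genes had been 1.00, and 41 of them had a smaller effect at 16 h than at 1.5 h by the test of the difference. This list too was chosen with earlier results of these data known.

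Myc, which drives ribosome production, had 94.7, 86.7, 83.5 and 81.1 CPM after IL-2 and 119, 116, 139 and 76.8 CPM after PBS. Its log2 difference of -0.38 ± 0.12 did not pass (adjusted p = 0.228), but without PBS library 4, the only one below the IL-2 libraries, it was -0.53 and did (adjusted p = 0.00356). Cytosolic ribosomal protein genes were below 0 in 82 of 82 cases, with a median of -0.31 and none past the test, or 1 without PBS library 1. Their sum, however, was 28570 to 33028 CPM in IL-2 libraries, against 27335 and 31375 CPM in PBS libraries 1 and 2 and 44473 and 44898 CPM in PBS libraries 3 and 4. Without PBS libraries 3 and 4 their median turned to 0.06, with 16 of 82 below 0. The ribosome biogenesis genes kept a median of -0.19 then, with 38 of 43 below 0. Cholesterol synthesis genes were below 0 in 23 of 24 cases, with none past the test and a median of -0.24, and -0.21 without PBS libraries 3 and 4.

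**Figure D5:**
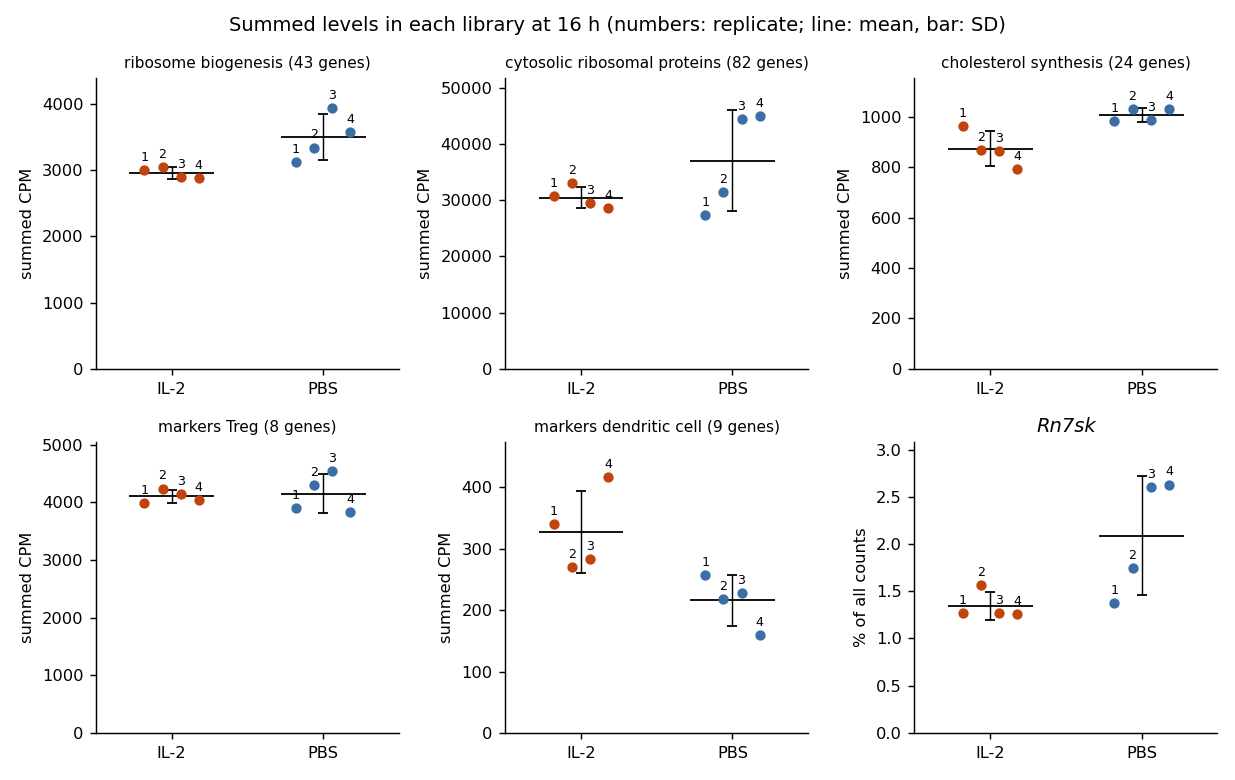
Summed level (CPM) of 5 gene lists and the share of all reads from Rn7sk in each IL-2 library (left) and PBS library (right) at 16 h; numbers are replicates, lines means and bars SDs. PBS libraries 3 and 4 are the highest in ribosomal protein genes, at 44473 and 44898 CPM, and in Rn7sk, at 2.61% and 2.63%.

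The only gene lower after IL-2 was Gm24265, annotated as a small nuclear RNA on chromosome 5. It had 13.6, 16.1, 10.9 and 11.6 CPM in IL-2 libraries, against 17.9, 23.9, 33.8 and 39.8 CPM in PBS libraries (log2 change -1.14 ± 0.20, adjusted p = 0.00982). PBS libraries 3 and 4, the libraries richest in Rn7sk, had the highest levels. Without them the difference was -0.67 (adjusted p = 0.0946), and the call was lost in 14 of the 16 alternatives, over which the adjusted p ran from 1.53e-05 to 0.0946. Gm22486, another short predicted gene, had 11.5 to 16.4 CPM after IL-2 and 15.6 to 34.9 CPM after PBS, and did not pass (-1.01 ± 0.19, adjusted p = 0.0162). It passed with DESeq2 (adjusted p = 8.97e-05) and without PBS library 1 (adjusted p = 0.00139), and was -0.59 without PBS libraries 3 and 4 (adjusted p = 0.162). The part of small RNA content in these values was not tested.

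Of the markers of other spleen cells, those of dendritic cells had the highest values relative to PBS. Of 11 dendritic cell markers 9 were tested and none passed, with a median log2 value of 0.55. In 3 of the 9 all IL-2 libraries were above all PBS libraries, where 2.53% of all genes tested were. Their summed level was 270 to 418 CPM in IL-2 libraries and 160 to 258 CPM in PBS libraries, and it was highest in IL-2 libraries 4 and 1. Of the 60 higher genes, 54 were highest in IL-2 library 3, 3 in library 2, 3 in library 4 and none in library 1, where 47 were lowest. Myeloid markers (11 of 15 tested) summed to 780 to 1340 CPM after IL-2 and 653 to 1139 CPM after PBS, and B cell markers (11 of 12 tested) to 511 to 555 CPM and 368 to 575 CPM. Of 6 markers of germinal centre or cycling B cells Mybl1 and S1pr2 were tested, and they summed to 17.4 to 20.1 CPM in IL-2 libraries and 14.2 to 18.1 CPM in PBS libraries. The part of other cells in the results was not tested.

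The remaining 9 higher genes were outside the lists, and are named after their values were seen. Dtl, a substrate receptor that degrades licensing factors in S phase, averaged 11.6 ± 2.58 CPM in IL-2 libraries and 4.81 ± 0.941 CPM in PBS libraries (log2 change 1.26 ± 0.16, adjusted p = 0.00114). Stil and Arhgap11a are also known from dividing cells, the first in centriole duplication, and rose by 1.52 ± 0.24 and 0.89 ± 0.13. Shcbp1 and BC030867 rose as well, at levels of at most 2.21 CPM in the mean of the IL-2 libraries. Cxcl9, a chemokine induced by interferon gamma and made chiefly by myeloid cells, averaged 4.17 ± 1.68 CPM after IL-2 and 1.14 ± 0.325 CPM after PBS (log2 change 1.86 ± 0.31, adjusted p = 0.00602). The dendritic cell markers above were also higher in the IL-2 libraries, and their part in this value was not tested. Ulbp1, a ligand of the receptor NKG2D, had the smallest change of the 60, 0.51 ± 0.08 (adjusted p = 0.0025). The other 2 are gene IDs without a symbol in the reference tables.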

How the data were processed

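Tregs of the spleen were profiled by total RNA sequencing with ribosomal RNA depletion, per the labels' protocols. The authors deposited gene counts, 1 table per time. Per the submitters' processing notes, the tools were STAR 2.5.0, featureCounts 1.5.0 and DESeq2 on GRCm38, and the strand setting of the counting is not given in the sources used here, so overlapping and antisense genes are uncertain. The 16 h table had already been filtered, with more than 0.5 CPM in at least 3 columns for 18312 of 18312 genes. Depth was 13.9 to 17.6 M counts per library at 16 h, 12.2 to 15.3 at 1.5 h and 20.6 to 27.8 at 72 h, where both runs of each library were summed.

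From the deposited counts, CPM were computed with TMM factors and tests were run in R 4.3.3 with edgeR 4.0.16 (quasi-likelihood F test, filterByExpr, limma 3.58.1) on all 12 libraries of the 16 h table. P-values were adjusted with Benjamini-Hochberg over all genes, with a threshold of 0.01, and a log2 fold change is given ± its SE, computed from the F statistic. The effects at 16 h and at 1.5 h or 72 h were compared by an interaction term over the counts of both tables. DESeq2 1.42.0, other size factors and filters, a replicate block, fewer libraries and each library left out were alternatives. The procedure was tested on simulated data. At 72 h same-numbered IL-2 and PBS libraries deviated together, with correlations of 0.42, 0.29 and 0.36, so that the numbers pair them there.

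The genes and lists were chosen with earlier results of these data known. Genes were named by rule: the 15 largest called changes in each direction at a mean of at least 5 CPM with no overlap between groups, every called lower gene, up to 3 genes with the smallest p in each list with a called member, the 8 lower genes with the smallest p, the 5 largest differences in each direction of each interaction, and a panel of IL-2, Treg and division genes. Gene positions come from GENCODE M21 on GRCm38, promoters from RefSeq on GRCm38.p6, and 55 gene IDs had no symbol. The 4 h samples and later times were not analysed here.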

Additional observations from a re-analysis of the deposited data

Results flagged for a closer look

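The levels of the 72 named genes were examined in both groups of 4 libraries, 144 groups in all, for a library whose gap to the nearest other one was large against the range of the group (Dixon's test at the 95% level). In 9 groups a library stood out, and chance alone flags about 1 in 20 groups.

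Kif14 was at 5.25 CPM in IL-2 library 3, against 3.04 to 3.41 CPM in the other 3 IL-2 libraries. In IL-2 library 2, Tacc3 had 8.96 CPM, and the other IL-2 libraries had 10.5 to 10.7 CPM. Ncapg2 was at 10.1 CPM in PBS library 3, against 9.28 to 9.31 CPM in the other 3 PBS libraries. In IL-2 library 1, Sdad1 had 44.4 CPM, and the other IL-2 libraries had 42.6 to 42.7 CPM. Dph5 was at 38.7 CPM in IL-2 library 4, against 39.8 to 39.9 CPM in the other 3 IL-2 libraries. In IL-2 library 2, Enah had 1.05 CPM, and the other IL-2 libraries had 0.627 to 0.682 CPM. Gzmb was at 7.86 CPM in PBS library 3, against 2.57 to 3.24 CPM in the other 3 PBS libraries. In IL-2 library 4, Tcf7 had 413 CPM, and the other IL-2 libraries had 450 to 457 CPM. Bambi-ps1 was at 7.13 CPM in IL-2 library 1, against 5.25 to 5.5 CPM in the other 3 IL-2 libraries.

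For 58 named genes the effect of IL-2 over PBS at 16 h differed from that at 1.5 h by the test of the difference (edgeR, adjusted p below 0.01). The values below are the log2 effect at 16 h minus that at 1.5 h, and for the 60 genes higher at 16 h they are a description, because these genes were chosen for their effect at 16 h. The same holds for the panel genes, chosen with earlier results known, and for those named for the largest differences. Among division and histone genes the difference was 1.57 for Hist1h1b, 1.73 for Kntc1, 1.14 for Aspm, 1.69 for Cit, 1.55 for Hist1h2bn, 1.45 for Dtl, 1.1 for Cenpe and 1.18 for Rrm2. It was 1.37 for Mki67, 1.1 for Top2a, 1.52 for Clspn, 0.721 for Uhrf1, 1.27 for Pclaf, 2.01 for Mcm10, 1.45 for Cdc6 and 1.1 for Pole. Further values were 1.52 for Brip1, 1.07 for Brca1, 1.88 for Rad54b, 2.28 for Bub1, 1.93 for Kif14, 1.05 for Tacc3, 1.48 for Ccna2 and 2.18 for Depdc1b. The remaining differences of this kind were 1.9 for E2f8, 2 for E2f7 and 1.73 for Hist1h2ab. E2f2 had a difference of 1.87 but was not among the 60, and its log2 value at 16 h was 0.34 to 0.45 over the alternatives. Genes whose fall after IL-2 at 1.5 h was smaller or gone at 16 h had positive differences too. They were 1.4 for Il7r, 1.62 for Bcl6, 1.38 for Tcf7, 2.02 for Arl5c, 1.88 for Pde2a, 1.82 for Bambi-ps1 and 1.75 for Scarf1. Scarf1 lay above its PBS level at 16 h, with a log2 value of 0.31 to 0.55 over the alternatives.

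The effect was smaller at 16 h, or of the opposite sign, for others, with differences of -1.69 for Gm24265, -1.39 for Sdad1, -1.67 for Gm22486, -2.35 for Per2, -1.69 for Nop56, -1.9 for Mettl1, -1.52 for Pwp2 and -1.04 for Dph5. Negative differences were also found, at -1.98 for Il2ra, -1.03 for Il2rb, -2.15 for Cish, -2.33 for Socs1, -2.29 for Socs2, -3.78 for Lif, -3.43 for Lta and -4.17 for Enah. The list went on with -0.863 for Foxp3, -2.14 for Myc, -0.761 for Ccnd2, -1.26 for Bcl2, -3.51 for Hbegf, -3.3 for Kcnk5 and -3.19 for Trib3. Between 16 h and 72 h the difference was 2.05 for Kntc1, 2.86 for Bub1 and 2.49 for Kif14.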

How the results depend on the processing

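For IL-2 against PBS at 16 h, where 61 genes passed, DESeq2 called 136, a threshold of 0.05 called 129, and a fit of only the 8 compared libraries called 7. Leaving out 1 library at a time gave 19 to 72. Chosen after seeing the data, the fit without PBS libraries 3 and 4 called 23, and the replicate block on only the 8 libraries called 32. The cause of these differences was not tested. For the difference between the effects at 16 h and 72 h, where 3 genes passed, DESeq2 called 37, the replicate block 23 and the fit without the FP libraries 1, and leaving out 1 library gave 0 to 3. At 16 h it was not settled whether the numbers pair the libraries. Same-numbered IL-2 and PBS libraries had correlations of 0.03 to 0.10, all above 0, and those with different numbers had -0.22 to 0.11. Not every library correlated best with its own number, and the replicate block on all 12 libraries called 75. For FP against IL-2 leaving out 1 library gave 4375 to 5305 genes, against 5544, and for 16 h against 1.5 h it gave 1885 to 2512, against 2259. The 61 genes past the threshold kept their direction, which could hardly turn because their groups did not overlap. Some values that did not pass changed sign. Without PBS libraries 3 and 4 the medians of the ribosomal protein and oxidative phosphorylation lists turned to 0.06 each. Foxp3, Il2rb and Il7r were among the genes whose sign differed between alternatives. Replacing TMM by DESeq2's size factors shifted the median log2 of all genes by 0.0043. Genes under 1 CPM, such as Troap, rest on few reads, and their fold changes are the least certain. In the main fit of IL-2 against PBS at 16 h, the smallest log2 difference that passed among the higher genes was 0.51. That value belongs to this comparison and is no general limit for 4 libraries a group. For FP over IL-2 in the same fit, Cry1 passed at 0.37 (edgeR, adjusted p = 0.00228) and Tef at -0.45 (adjusted p = 0.000252).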

Other observations

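Genes of the T cell receptor variable segments lay below their PBS level: 75 of 82 tested had a log2 value below 0, with a median of -0.27. None passed the test, while 1 passed with DESeq2 and 2 without PBS library 1. Without PBS libraries 3 and 4, 52 of the 82 were below 0 and the median was -0.08. Subunits of oxidative phosphorylation were below 0 in 73 of 78 cases (median -0.18), also with none past the test, and their sum was highest in PBS libraries 3 and 4. Without these libraries 16 of the 78 were below 0 and the median turned to 0.06. The chemokine receptor and homing list had a median of 0.02 and the interferon-stimulated list one of 0.05, both with no gene past the test, where 0.35% of all genes passed. Lists this short would rarely hold a called gene at that share.

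Per2, a repressor of the circadian clock, had 7.45, 6.30, 7.30 and 5.30 CPM in IL-2 libraries, against 10.5, 11.5, 11.9 and 8.97 CPM in PBS libraries. The groups did not overlap, but the log2 difference of -0.70 ± 0.13 missed the threshold (adjusted p = 0.0173). It passed with DESeq2 (adjusted p = 0.000369), and over all alternatives the adjusted p ran from that value to 0.0828. Over 17 clock genes, a list drawn up after these values were seen, 12 were below 0, the median was -0.13 and none passed. The labels do not give the clock time at which the cells were taken.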
